A study of Sus scrofa with 9 samples.

Results

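Whole blood of pigs given azide was examined for the genes at the centre of NF-kB signalling: TNF, the cytokine that switches it on, the subunits NFKB1 and RELA, and the inhibitors NFKBIA and TNFAIP3. Members were all probes of the array whose gene name, symbol or description is one of these 5 genes. Of the 5 genes 4 were found, among 1844 genes with a symbol on the array. They had 9 probes of 43603, 3 for TNF, 2 for NFKB1, 1 for RELA and 3 for NFKBIA. No probe was matched to TNFAIP3, which was therefore not analysed here.

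The donors were male Clawn miniature pigs, a small breed used in laboratories and kept free of specified pathogens, and the sample was whole blood. Blood was taken before feeding (0 h), 6 h after and 24 h after an oral azide dose of 300 µg/kg, given as 0.01 of the LD50, with the salt not stated. Azide inhibits cytochrome c oxidase and so stops mitochondrial respiration. Each time had 3 arrays, and the age is 7 months in one label and 7 weeks in another. Whether equal replicate numbers stand for the same pig is not in the labels, and the p-values below cover only the spread between these samples. There were no undosed pigs at the later times, and the dose and the time since feeding or handling cannot be told apart. All 3 arrays of a time shared a slide and a scan that no other time used, and the effect of the slide and that of the time cannot be told apart.

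NF-kB is a family of dimeric transcription factors that wait in the cytoplasm bound to inhibitor proteins. When TNF, interleukin 1 or bacterial products bind their receptors, adaptor proteins activate a kinase complex that marks NFKBIA, also called IkB alpha, for destruction, and the freed dimers enter the nucleus. NFKBIA is itself a target gene of NF-kB, so new inhibitor is made after activation and closes a feedback loop. In blood, monocytes and neutrophils carry many of the receptors that start this pathway, and monocytes are a main source of TNF.

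Each array was a one-colour Cy3 design with 43803 spots besides the controls. The share of these well above background ranged over 39.9% to 46.6% in the before-feeding arrays, 42.4% to 47.8% in the 6 h arrays and 45.5% to 56.6% in the 24 h arrays. The levels below are log2 processed signals minus the 75th percentile of their own array, and differences between times are differences of the means of these log2 levels. Standard errors (SE) and p-values come from 1 limma fit over all 9 arrays, adjusted by Benjamini-Hochberg over 19783 tested probes, with a threshold of 0.05. The number of arrays, 3 per time, limits the precision of every value. A fold between probes would compare different hybridisation strengths, so levels are compared within a probe only. Of the listed blood cell markers, 6 of 6 tested neutrophil, 8 of 8 tested monocyte and 8 of 9 tested T cell markers were well above background on all 9 arrays.

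The probes are short DNA strands of 60 bases, and their position in the transcript decides what each can report. The 3 NFKBIA probes lie apart from each other, starting at bases 217 and 865 of one transcript entry and at base 1460 of another. The first 2 are shown whole and the third by its first 30 bases, because the 3 probes gave different values at 24 h:
NFKBIA probe 1: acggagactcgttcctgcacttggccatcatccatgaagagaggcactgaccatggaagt
NFKBIA probe 2: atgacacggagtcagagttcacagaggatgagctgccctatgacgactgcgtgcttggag
NFKBIA probe 3: cctgtcaaggtttgtgttaccctgctgtaa

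The TNF probes start at bases 531, 1501 and 1507 of the TNF transcript, and the NFKB1 probes at bases 2429 and 2435 of the NFKB1 transcript. TNF probes 2 and 3 share 54 bases, and so do the 2 NFKB1 probes, so each pair measures nearly the same stretch and is not a pair of independent readings. They are shown because the first TNF probe was dim while the later 2 were bright, with capitals marking bases shared within a pair. TNF probes 2 and 3 are shown by their first 30 bases:
TNF probe 1: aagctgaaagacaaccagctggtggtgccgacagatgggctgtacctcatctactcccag
TNF probe 2: ctcctaGCCTCTGTGCCTCCTTTTGCTTAT
TNF probe 3: GCCTCTGTGCCTCCTTTTGCTTATGTTTTT
NFKB1 probe 1: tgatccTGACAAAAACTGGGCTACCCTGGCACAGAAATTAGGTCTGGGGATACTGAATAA
NFKB1 probe 2: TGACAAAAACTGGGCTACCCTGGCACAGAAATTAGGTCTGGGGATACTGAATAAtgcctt
The overlapping pairs differed by -0.02 to 0.25 (log2, median 0.03) over the 9 arrays for TNF and by -0.11 to 0.19 (median 0.11) for NFKB1. No other probe of the array had the same 60 bases as a member.

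At 6 h all 8 tested member probes had a higher mean than before feeding, and the NFKBIA probes differed most, by about 2 on the log2 scale. The median difference of the 8 probes was 1.14, against 0.05 over all tested probes. In the same comparison 52.6% of all tested probes had a higher mean at 6 h. The 6 h and before-feeding arrays did not overlap, with 6 h higher, for 6 of the 8 member probes, a pattern shown by 16.0% of all tested probes. An unadjusted p under 0.05 was reached by 5 of the 8, all with a higher mean, against 25.5% of all tested probes in either direction and 14.7% with a higher mean. The 6 without overlap were the NFKBIA probes, TNF probes 2 and 3 and NFKB1 probe 2. The 5 were the NFKBIA and NFKB1 probes. Probes of the same gene are not independent members in these counts. After adjustment 0 of the 8 passed, and 0.0253% of all tested probes, 5 in number, did. The lowest adjusted p of a member was 0.0754.

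**Figure D1:**
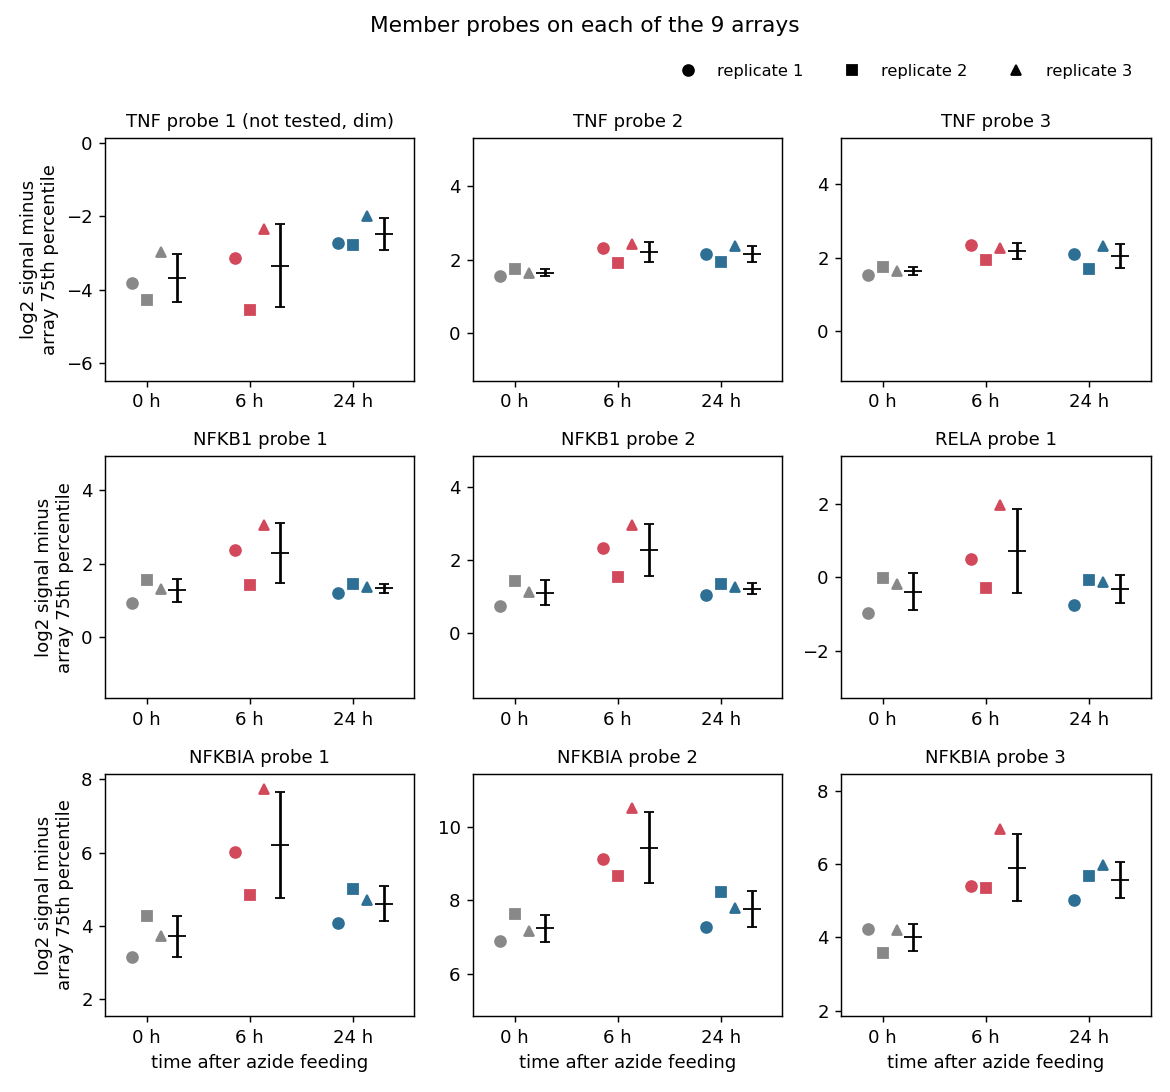
Level of each of the 9 member probes on every array (log2 processed signal minus the array's 75th percentile; 0 h, 6 h and 24 h after azide; marker shapes are replicate numbers; bars to the right of the points are the mean ± SD of 3 arrays; each panel spans the same number of log2 units). The 6 h arrays of NFKBIA probe 2 sit at 9.12, 8.65 and 10.51, above all before-feeding arrays, while TNF probe 2 spans 1.56 to 2.42 over the 9 arrays.

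NFKBIA probe 2, the brightest of the NFKBIA probes, had levels of 6.89, 7.63 and 7.17 before feeding, 9.12, 8.65 and 10.51 at 6 h, and 7.26, 8.23 and 7.78 at 24 h. Every 6 h array lay above every array of both other times, while the before-feeding and 24 h arrays overlapped. The mean difference at 6 h was 2.19 ± 0.47 (log2, SE, n = 3 per time), a 4.57-fold higher signal, with an adjusted p of 0.0754. At 24 h the mean was 0.53 ± 0.47 above the level before feeding (adjusted p = 0.631). Between 24 h and 6 h the difference was -1.67 ± 0.47 (adjusted p = 0.115).

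NFKBIA probe 1 gave 3.16, 4.27 and 3.74 before feeding, 6.02, 4.85 and 7.73 at 6 h, and 4.08, 5.01 and 4.72 at 24 h. The 6 h arrays lay above the before-feeding arrays, but the lowest of them lay within the range of the 24 h arrays. Its difference was 2.47 ± 0.62 at 6 h against before feeding (adjusted p = 0.0805) and 0.88 ± 0.62 at 24 h against before feeding (adjusted p = 0.543). Between 24 h and 6 h it was -1.59 ± 0.62 (adjusted p = 0.182).

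NFKBIA probe 3 gave 4.22, 3.59 and 4.20 before feeding, 5.40, 5.36 and 6.95 at 6 h, and 5.02, 5.68 and 5.98 at 24 h. Here the arrays of both later times lay above all before-feeding arrays and overlapped with each other. The difference was 1.90 ± 0.45 at 6 h (adjusted p = 0.0772) and 1.56 ± 0.45 at 24 h (adjusted p = 0.24), each against before feeding. For 24 h against 6 h it was -0.34 ± 0.45 (adjusted p = 0.715), and its sign was positive with the arrays quantile normalized or centred on the spike-in controls.

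The 3 NFKBIA probes therefore ordered the times in the same way by their means, 6 h highest, then 24 h, then before feeding, but placed 24 h differently. After subtraction of probe 2 on the same array, which removes any shift shared by the whole array, probe 3 was 1.03 higher at 24 h than before feeding and 1.33 higher at 24 h than at 6 h. In both, the 3 arrays of one time lay wholly above those of the other. The exact permutation test gave p = 0.1 for each, the smallest that 3 arrays against 3 allow, and 0.18 after adjustment over 18 such comparisons. Which of these probes to set against each other was chosen after their values were seen. Relative to probe 1, probe 3 was 0.68 higher at 24 h than before feeding, with overlapping arrays (exact permutation p = 0.3). Relative to probe 1 it was 1.26 higher at 24 h than at 6 h, without overlap (exact permutation p = 0.1). Probe 2 minus probe 1 differed by -0.28 at 6 h and by -0.35 at 24 h, each against before feeding, with exact permutation p-values of 0.5 and 0.1.

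The NF-kB subunits followed the same course with smaller differences. NFKB1, whose precursor protein is processed into the p50 subunit, had levels on probe 1 of 0.93, 1.56 and 1.32 before feeding, 2.38, 1.43 and 3.06 at 6 h, and 1.20, 1.44 and 1.36 at 24 h. Replicates 1 and 3 at 6 h stood above all other arrays, and replicate 2 at 6 h lay inside the range of the arrays before feeding and at 24 h. The difference at 6 h against before feeding was 1.02 ± 0.39 on probe 1 (adjusted p = 0.148) and 1.17 ± 0.37 on probe 2 (adjusted p = 0.104).

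At 24 h the NFKB1 means were within 0.11 of those before feeding, with differences of 0.06 ± 0.39 and 0.11 ± 0.37 on probes 1 and 2 (adjusted p = 0.96 and 0.914). The difference of 24 h against 6 h was -0.95 ± 0.39 on probe 1 and -1.06 ± 0.37 on probe 2 (adjusted p = 0.195 and 0.149). On probe 2 the 24 h arrays, at 1.05, 1.34 and 1.26, lay wholly below the 6 h arrays, at 2.34, 1.54 and 2.95.

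RELA, the subunit that carries the transactivating domain of the commonest NF-kB dimer, had levels of -0.97, -0.01 and -0.18 before feeding, 0.50, -0.30 and 1.97 at 6 h, and -0.76, -0.08 and -0.12 at 24 h. Its 6 h arrays spread over more than 2 log2 units, and replicate 2 at 6 h lay below 2 of the 3 before-feeding arrays. The difference was 1.11 ± 0.52 at 6 h against before feeding (adjusted p = 0.209) and -1.05 ± 0.52 at 24 h against 6 h (adjusted p = 0.269). The 24 h mean differed from that before feeding by 0.06 ± 0.52 (adjusted p = 0.97), with a sign that was negative under another background correction.

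TNF, the secreted cytokine, had the smallest differences of the tested members at 6 h against before feeding. TNF probe 2 had levels of 1.56, 1.75 and 1.63 before feeding, 2.33, 1.91 and 2.42 at 6 h, and 2.16, 1.94 and 2.37 at 24 h. All arrays of both later times lay above all before-feeding arrays, and the 2 later times overlapped. The difference was 0.58 ± 0.26 at 6 h (1.49-fold, adjusted p = 0.2) and 0.51 ± 0.26 at 24 h (1.43-fold, adjusted p = 0.414), each against before feeding.

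TNF probe 3, which covers nearly the same bases, gave 0.54 ± 0.27 at 6 h and 0.41 ± 0.27 at 24 h against before feeding (adjusted p = 0.236 and 0.523). Its levels were 1.53, 1.75 and 1.64 before feeding, 2.35, 1.93 and 2.26 at 6 h, and 2.11, 1.69 and 2.33 at 24 h. One 24 h array lay within the before-feeding range. Between 24 h and 6 h the differences of probes 2 and 3 were -0.06 ± 0.26 and -0.14 ± 0.27 (adjusted p = 0.921 and 0.821), and both signs were positive under several other scalings.

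TNF probe 1, the one nearest the start of the transcript, was well above background on 0 of 3 arrays before feeding, 1 of 3 at 6 h and 2 of 3 at 24 h, so it did not enter the test. Its processed signals were 5.82, 2.86 and 11.9 before feeding, 10.4, 2.54 and 18.6 at 6 h, and 17.1, 16.0 and 51.7 at 24 h, on the linear intensity scale. With every before-feeding array this dim, no fold against before feeding was measured. As a rough guide, its mean at 24 h was 1.23-fold above a floor set on the before-feeding arrays. The floor takes, for each of these arrays, the lowest signal of any probe that counted as well above background, or the probe's own where that was higher. Since the 24 h mean holds all 3 arrays, of which 2 were well above background, this is not a firm bound. At 6 h the same ratio was under 1, so no fold is given.

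**Figure D2:**
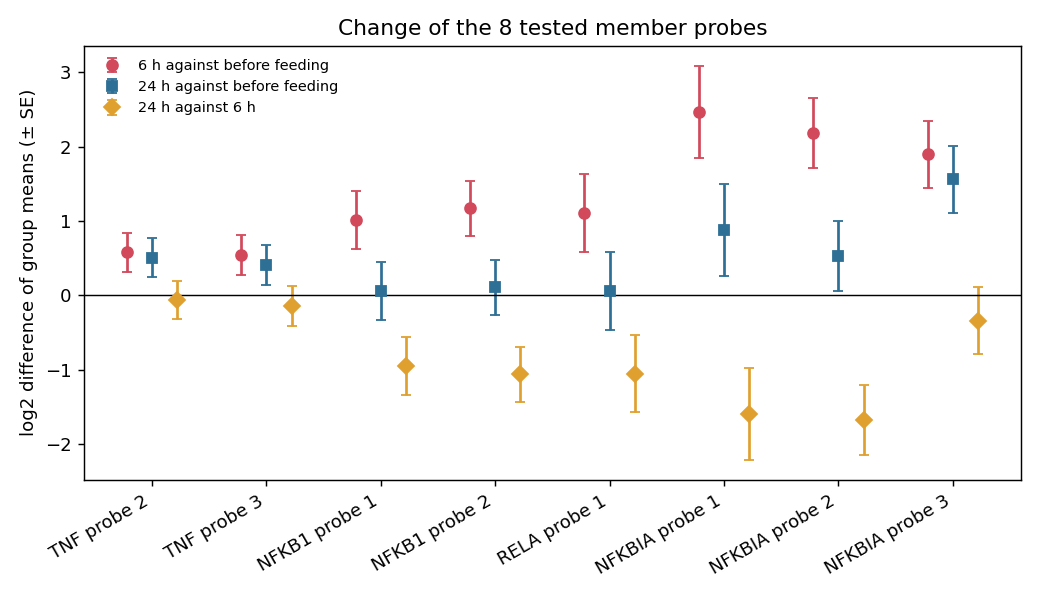
Differences of group means for the 8 tested member probes (vertical axis, log2, bars ± SE from limma, n = 3 arrays per time; red circles, 6 h against before feeding; blue squares, 24 h against before feeding; yellow diamonds, 24 h against 6 h). The NFKBIA probes stand at 2.47, 2.19 and 1.90 for 6 h against before feeding and the TNF probes at 0.58 and 0.54.

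The 8 tested member probes again all had a higher mean at 24 h than before feeding, with a median difference of 0.46 against -0.01 over all tested probes, of which 49.1% were higher. For NFKB1 and RELA the sign depended on which array was left out, and for RELA also on the background correction. NFKBIA probe 3 and TNF probe 2 were the 2 members whose 24 h and before-feeding arrays did not overlap, with 24 h higher, a pattern shown by 7.50% of all tested probes. One, NFKBIA probe 3, had an unadjusted p under 0.05, against 13.9% of all tested probes in either direction and 5.32% with a higher mean. By limma 0 of the 8 members and 0.00% of all tested probes passed after adjustment.

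All 8 had a lower mean at 24 h than at 6 h, with a median difference of -1.0 against -0.09 over all tested probes, of which 43.7% were higher. The exceptions under other scalings were the TNF probes and NFKBIA probe 3, whose signs turned. For NFKB1 probe 2 and NFKBIA probe 2 the 24 h arrays lay wholly below the 6 h arrays, a pattern of 16.5% of all tested probes. An unadjusted p under 0.05 was reached by 4 members, both NFKB1 probes and NFKBIA probes 1 and 2, against 21.6% of all tested probes in either direction and 13.6% with a lower mean. After adjustment by limma 0 members and 0.00% of all tested probes passed.

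More members passed when replicate 2 at 6 h was left out. Without it, 5 member probes passed at 6 h against before feeding, namely both NFKB1 probes, with differences of 1.45 and 1.54, and the NFKBIA probes 1, 2 and 3, with 3.15, 2.58 and 2.17 (limma adjusted p from 0.0219 to 0.0315). In that fit 12.1% of all tested probes, 2396 in number, passed. Without that array 4 members passed at 24 h against 6 h, the NFKB1 probes with differences of -1.38 and -1.42, and NFKBIA probes 1 and 2 with -2.27 and -2.06, beside 8.93% of all tested probes. With the arrays centred on the spike-in controls instead, 2 members passed at 6 h and 7 at 24 h, each against before feeding, beside 2.21% and 29.1% of all tested probes, and that centring moved the median of all tested probes to 0.22 at 6 h and to 0.99 at 24 h. Without replicate 3 at 6 h, where NFKBIA was highest, the difference of NFKBIA probe 2 was 1.65 (adjusted p = 0.201).

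Differences between 2 probes on one array are free of any shift shared by the whole array, though not of quantile normalization. By this measure NFKBIA probe 2 was higher relative to TNF probe 2 at 6 h than before feeding by 1.62, with no overlap between the arrays of the 2 times. Relative to NFKB1 probe 1 and to RELA it was higher at 6 h than before feeding by 1.18 and 1.08, again with no overlap. Each of these had an exact permutation p of 0.1, the smallest possible, or 0.18 adjusted over the 18 comparisons. The 24 h shift of NFKBIA relative to TNF, against before feeding, was 0.01 (exact permutation p = 1), and it was 0.21 with quantile normalization and 0.30 with the deposited series-wide values. Relative to RELA it was 0.46, without overlap (exact permutation p = 0.1, adjusted 0.18). Relative to NFKB1 probe 1 it was also 0.46, but with overlapping arrays (exact permutation p = 0.2, adjusted 0.3).

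Markers of myeloid cells, like NFKBIA, had their highest mean at 6 h. The neutrophil markers, averaged over 6 genes after each gene was centred on its mean of the 9 arrays, were at -0.78, -0.57 and -0.65 before feeding, 1.11, 0.22 and 1.54 at 6 h, and -0.10, -0.16 and -0.60 at 24 h (log2). The 8 monocyte markers were at -0.79, -0.58 and -0.42 before feeding, 0.51, 0.26 and 1.44 at 6 h, and -0.61, -0.37 and 0.56 at 24 h. For both lists replicate 2 was the lowest and replicate 3 the highest of the 6 h arrays, which is the order that NFKBIA probe 2 showed. At 24 h neither list had the order of NFKBIA probe 2, which probe 1 shared, but the monocyte markers had the order of NFKBIA probe 3. On replicate 3 at 24 h the monocyte markers, at 0.56, stood above replicates 1 and 2 at 6 h. NFKBIA probes 1 and 2, centred likewise, were at -0.12 and -0.36 there, below their replicates 1 and 2 at 6 h. NFKBIA probe 3 was at 0.83 there, above its replicates 1 and 2 at 6 h (0.24 and 0.20).

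T cell markers were placed the other way round. Their mean over 9 genes was 0.28, 0.17 and 0.57 before feeding, -0.44, 0.02 and -1.09 at 6 h, and 0.21, 0.16 and 0.13 at 24 h. At 6 h against before feeding 5 of 6 neutrophil and 8 of 8 monocyte markers had a higher mean and 8 of 9 T cell markers a lower one, with medians of 1.31, 1.53 and -0.74. None of them passed after adjustment by limma, and 3, 5 and 5 of them had an unadjusted p under 0.05 in those directions, against 14.7% of all tested probes with a higher and 10.9% with a lower mean. Only 1 B cell, 3 platelet and 1 red cell marker were tested, with means or values at 6 h against before feeding of -0.13 for the B cell marker, a median of 0.25 for the platelet markers and -0.30 for the red cell marker. In whole blood fewer cells of a type and less RNA per cell cannot be told apart, and the part of these markers in the NF-kB results was not tested.

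**Figure D3:**
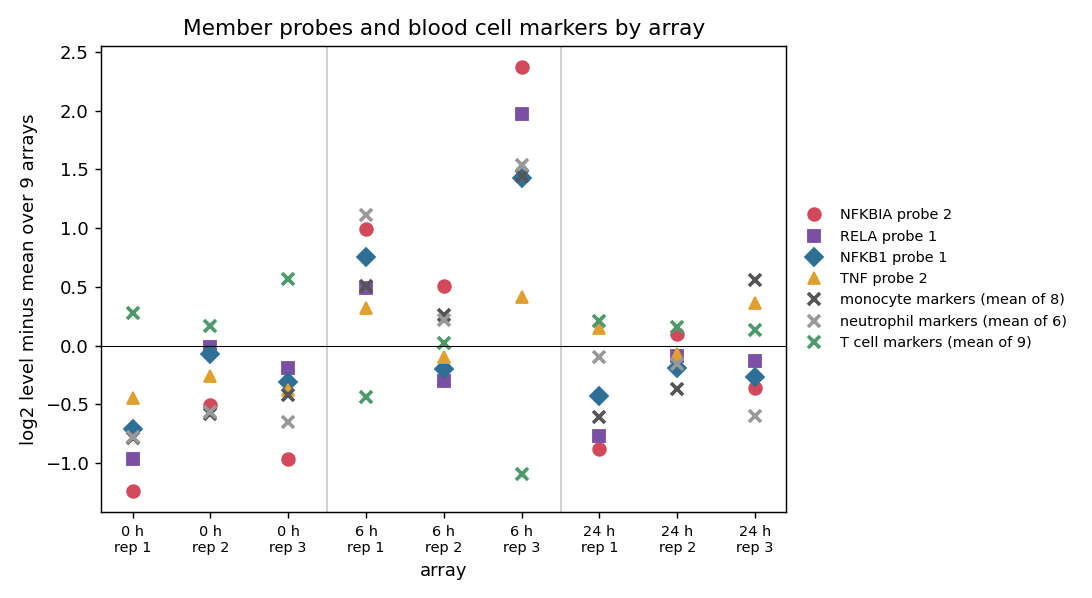
One probe of each member gene and the mean of 3 blood cell marker lists on each array (vertical axis, log2 level minus its mean over the 9 arrays; horizontal axis, arrays by time and replicate; coloured symbols, members; crosses, marker lists). Replicate 3 at 6 h is the highest array for the monocyte (1.44) and neutrophil (1.54) markers and the lowest for the T cell markers (-1.09).

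Of the other genes upstream of NF-kB, the ligands and receptors stood furthest from the median of all probes. Of 22 listed genes 16 had a probe and 13 were tested, TNF among them. At 6 h against before feeding 11 had a higher and 2 a lower mean, with a median difference of 1.55, and 0 passed after adjustment. Of these, 9 of the higher and 1 of the lower had an unadjusted p under 0.05 (14.7% and 10.9% of all tested probes). TLR9 is counted among the 11 and the 9, though it was well above background on only 1 of 3 before-feeding arrays. It entered the test only through the later times, where it was well above background on 3 of 3. At 24 h against before feeding the split was 9 higher and 4 lower with a median of 0.34. At 24 h against 6 h all 13 were lower with a median of -0.77, but this count depends on the scaling. TNF turned sign under other scalings, and spike-in centring moved the median of all tested probes there from -0.09 to 0.73. That shift is larger than the differences of CD40 (-0.06), TLR9 (-0.15), LTA (-0.25), IL1A (-0.51), TNFSF10 (-0.57) and IL18 (-0.77). CD14 in this list, and CD86 among the target genes, are also monocyte markers.

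CD14, the receptor that hands bacterial lipopolysaccharide to TLR4, had levels of 2.79, 4.30 and 4.49 before feeding, 6.26, 5.64 and 7.35 at 6 h, and 3.74, 4.88 and 5.21 at 24 h. Its difference at 6 h against before feeding was 2.56 ± 0.57 (adjusted p = 0.0757). TLR4, the lipopolysaccharide receptor itself, differed by 2.55 ± 0.63 (adjusted p = 0.0797) at its brightest probe, with 1.49 to 2.78 over 3 probes. TLR2, a receptor for bacterial lipoproteins, differed by 1.93 ± 0.46 at 6 h against before feeding (adjusted p = 0.0773) and by -1.68 ± 0.46 at 24 h against 6 h (adjusted p = 0.113). TNFSF13B, the B cell survival cytokine BAFF, had levels of -1.16, -0.72 and -0.92 before feeding, 0.92, 0.19 and 2.31 at 6 h, and -0.71, -0.25 and 0.63 at 24 h, a difference of 2.07 ± 0.51 at 6 h against before feeding (adjusted p = 0.0796).

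TNFRSF1B, the second TNF receptor, had levels of -0.36, 1.1 and 0.32 before feeding, 1.62, 1.15 and 2.94 at 6 h, and -0.55, 0.21 and 0.51 at 24 h. It differed by -1.84 ± 0.52 at 24 h against 6 h (adjusted p = 0.115) at its brightest probe, with -1.84 to -0.62 over 3 probes. Its 24 h arrays lay wholly below its 6 h arrays. LTA, or lymphotoxin alpha, a relative of TNF made by lymphocytes, ran the other way. Its levels were -0.28, -0.30 and -0.25 before feeding, -0.93, -0.87 and -1.16 at 6 h, and -1.02, -1.36 and -1.34 at 24 h. LTA differed by -0.97 ± 0.25 at 24 h against before feeding (adjusted p = 0.222), and the sign was positive with spike-in centring. TLR9, a receptor for bacterial DNA, was well above background on all 3 arrays at 24 h but on only 1 of 3 before feeding, with levels of -2.22, -1.78 and -1.81 at 24 h and of -4.50, -3.29 and -2.38 before feeding. With 2 before-feeding arrays this dim no size is given for its difference, whose adjusted p was 0.275 and whose sign was negative under normexp.

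Between the receptors and NF-kB, 9 of 29 listed adaptors and kinases had a probe, and all 9 were tested. At 6 h against before feeding 7 had a higher and 2 a lower mean, with a median of 0.36. The counts were 6 and 3 at 24 h against before feeding (median 0.07) and 2 and 7 at 24 h against 6 h (median -0.52), and 0 passed by limma in any of the 3 comparisons. An unadjusted p under 0.05 was reached at 6 h against before feeding by 3, all with a higher mean (14.7% of all tested probes).

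The kinase complex that acts on NFKBIA was represented by its catalytic subunit IKBKB and its regulatory subunit IKBKG. IKBKB had levels of 1.27, 2.10 and 1.74 before feeding, 2.54, 2.51 and 3.21 at 6 h, and 1.93, 2.33 and 2.33 at 24 h. All 6 h arrays lay above all others. Its difference was 1.05 ± 0.32 at 6 h (adjusted p = 0.0991) and 0.49 ± 0.32 at 24 h (adjusted p = 0.51), each against before feeding. IKBKG differed by 1.13 ± 0.45 at 6 h against before feeding (adjusted p = 0.157), with overlapping arrays, and by -1.0 ± 0.45 at 24 h against 6 h (adjusted p = 0.227).

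The adaptor MYD88, which Toll-like and interleukin 1 receptors share, differed by 1.08 ± 0.41 at 6 h against before feeding (adjusted p = 0.144) at its brightest probe, while the 2 probes of the gene spanned 1.08 to 3.07. The ubiquitin ligase TRAF6, which acts after MYD88, differed by 0.81 ± 0.38 at 6 h against before feeding (adjusted p = 0.209). TRAF5, an adaptor of TNF receptor family members, differed by 0.84 ± 0.37 at 24 h against 6 h (adjusted p = 0.223). CASP8, the protease of the death receptor branch, differed by -0.37 ± 0.28 at 24 h against before feeding (adjusted p = 0.571), and its sign was positive with spike-in centring.

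Of 5 listed NF-kB subunits only NFKB1 and RELA had a probe, and of 20 listed inhibitors and brakes only NFKBIA did, so no other inhibitor of the pathway was measured under a gene name.

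Of 51 listed genes known as NF-kB targets, 34 had a probe and 21 were tested. At 6 h against before feeding 15 had a higher and 6 a lower mean, with a median of 0.66, and 7 of the higher and 2 of the lower had an unadjusted p under 0.05 (14.7% and 10.9% of all tested probes). The counts were 11 and 10 at 24 h against before feeding (median 0.30) and 5 and 16 at 24 h against 6 h (median -0.36). By limma 0 passed in any of the 3 comparisons, while an unadjusted p under 0.05 was reached by 1 higher and 3 lower at 24 h against before feeding (5.32% and 8.56% of all tested probes) and by 1 higher and 6 lower at 24 h against 6 h (7.97% and 13.6%).

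IRF1, a transcription factor of the interferon response, had levels of 3.77, 3.66 and 3.81 before feeding, 4.48, 4.71 and 4.80 at 6 h, and 3.95, 3.99 and 4.25 at 24 h. Its arrays were tight within each time, and its difference at 6 h against before feeding was 0.92 ± 0.25 (adjusted p = 0.0832).

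SOD2, the mitochondrial superoxide dismutase, differed by 2.05 ± 0.57 at 6 h against before feeding (adjusted p = 0.0866), with 2.05 to 2.51 over 2 probes. CFLAR, an inhibitor of death receptor signalling, differed by 1.16 ± 0.33 at 6 h against before feeding (adjusted p = 0.0908) and by -1.28 ± 0.33 at 24 h against 6 h (adjusted p = 0.112). MMP9, a neutrophil gelatinase on the neutrophil marker list, differed by -1.82 ± 0.54 at 24 h against 6 h (adjusted p = 0.122), with 24 h arrays wholly below the 6 h arrays.

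PLAU, the urokinase plasminogen activator, differed by 1.08 ± 0.35 at 24 h against before feeding (adjusted p = 0.263). The difference was already 1.05 ± 0.35 at 6 h against before feeding (adjusted p = 0.115), and 24 h against 6 h gave 0.03 ± 0.35. CCL5, a chemokine made by T cells among others, differed by -1.57 ± 0.56 at 24 h against before feeding (adjusted p = 0.288). Its levels were 1.94, 3.33 and 3.73 before feeding, 1.16, 2.41 and 1.01 at 6 h, and 1.04, 2.34 and 0.91 at 24 h, with overlap between each pair of times.

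**Figure D4:**
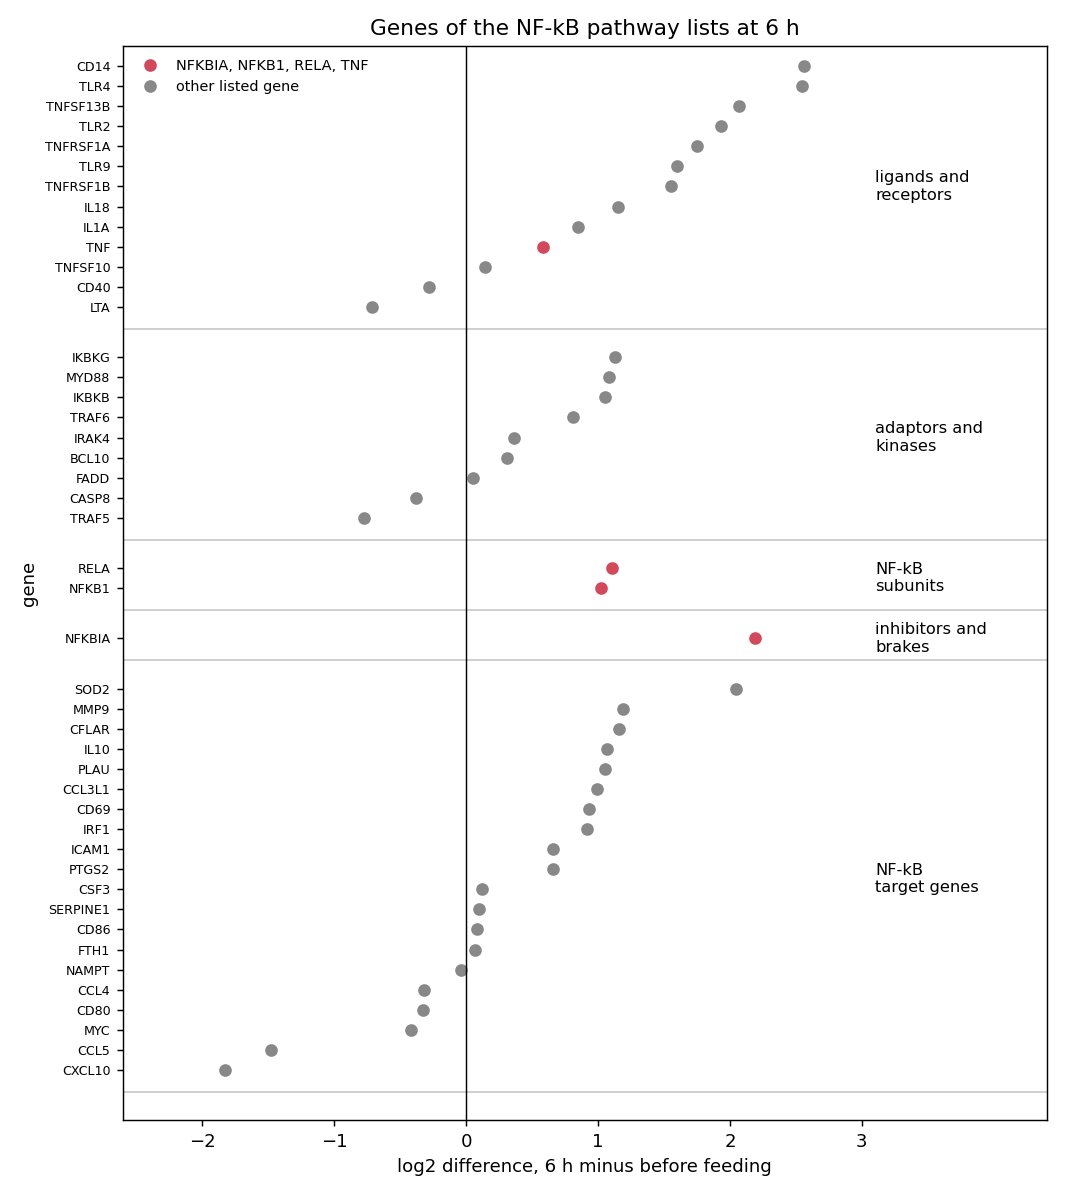
Log2 difference of 6 h minus before feeding for 45 tested genes of 5 NF-kB pathway lists (horizontal axis, log2; genes sorted within each list from the highest difference; red, member genes; grey, other listed genes). Of the ligands and receptors 11 of 13 lie above 0, and of the target genes drawn 14 of 20. TLR9, among those 11, was well above background on only 1 of 3 before-feeding arrays.

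The genes whose course over the 9 arrays was most like that of NFKBIA probe 2 were found by the root mean square distance between centred log2 levels, over 1152 named genes that are no members, with a median distance of 1.1. The nearest were ALOX5AP (distance 0.23), an activator of leukotriene synthesis, TLR2 (0.23), the lipoprotein receptor SCARB1 (0.26), the first TNF receptor TNFRSF1A (0.28) and TXNIP (0.28), an inhibitor of thioredoxin. TNFRSF1A had levels of 5.47, 6.08 and 6.18 before feeding, 7.37, 6.92 and 8.69 at 6 h, and 5.82, 6.33 and 6.49 at 24 h. Its difference at 6 h against before feeding was 1.75 ± 0.44 (adjusted p = 0.0805), and that of TXNIP was 2.01 ± 0.33 (adjusted p = 0.0597).

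For TNF probe 2 the median distance was 0.59, and the nearest genes were VDAC2 (0.20), a channel of the outer mitochondrial membrane, PSEN2 (0.21), a presenilin, SLC22A7 (0.22), an organic anion transporter, CYP24A1 (0.22), the enzyme that inactivates vitamin D, and NEK2 (0.23), a mitotic kinase. A probe that varies little is near many others by this distance, and TNF probe 2 spanned less than 1 log2 unit over the 9 arrays. NEK2 was not well above background on any before-feeding array, so its levels there are near background.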

How the data were processed

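Per the labels' protocols, blood was kept in PAXgene tubes and 0.5 µg of RNA was labelled with Cy3. The 9 deposited scanner files hold the intensity of each spot, from which the background had been subtracted per the file headers. No scaling between arrays had been done. The version of Feature Extraction is 10.5.1.1 in the headers but 9.5.3.1 in the submitters' processing notes. The deposited series-wide intensity values, linear by their range and matching the ranks of their own arrays, were an alternative. Their scaling by the authors is not given in sources used here.

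Control and outlier spots were left out, spots of a probe averaged, and log2 signals centred on each array's 75th percentile. Of 43596 usable probes, 19783 were well above background on all 3 arrays of a group and tested with limma 3.58.1 (R 4.3.3, 6 residual and 4.6 prior degrees of freedom). limma was checked on simulated data. Symbols were matched for 2852 probes (1844 genes) by gene name, description or RefSeq accession; the rest are unnamed here. A gene with several probes is given at its brightest tested one. Probe sequences and transcript positions are those of the scanner files; genome positions were not analysed here.

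The text names each member probe, up to 4 genes per pathway list with the lowest unadjusted p at 6 h and up to 2 in each other comparison, and the 5 genes nearest to NFKBIA and to TNF. The values of 1 named gene are not reported here. The members and lists were chosen with earlier results of these data known. Same-numbered arrays did not deviate together in every pair, so replicate numbers were not used as a block. Alternatives were other scalings, background corrections, filters and fits, and leaving out each array. Python 3.11.15, pandas 2.3.3, numpy 2.4.6, scipy 1.17.1 and matplotlib 3.10.9 were used.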

Additional observations from a re-analysis of the deposited data

How the results depend on the processing

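The direction of every tested member probe at 6 h against before feeding was the same under all 20 alternatives, and the NFKBIA probe 2 difference ranged from 1.65 to 2.58 (leave-one-array-out range 1.65 to 2.58, adjusted p 0.0232 to 0.201 over the alternatives). Counts of probes past the threshold were less stable. At 6 h against before feeding the 5 probes of the main fit became 8 with quantile normalization, 8 with the deposited series-wide values, 438 (2 of them members) with spike-in centring and 620 (2 of them members; 3.13% of all tested) with the replicate block. They became 0 with the 75th percentile over detected probes, with normexp, with no filter, with only probes above background on all 9 arrays, with only the arrays compared, and with a trended and robust fit. At 24 h against before feeding, 0 became 6 with quantile normalization, 6 with the deposited values and 5756 (7 of them members) with spike-in centring, which moved the median of all tested probes to 0.22 and 0.99 in these comparisons and to 0.73 for 24 h against 6 h. The NFKBIA probe 2 difference at 6 h passed at 2.37 with spike-in centring (adjusted p = 0.0438) and at 2.19 with the replicate block (adjusted p = 0.0432); under that block 8 other named genes also passed at 6 h, CD14, TLR4, TNFSF13B, SOD2, ALOX5AP, SCARB1, TNFRSF1A and TXNIP (adjusted p 0.0393 to 0.0441). Leaving out each array gave 0 to 2396 probes and 0 to 5 members at 6 h against before feeding, 0 to 0 at 24 h against before feeding, and 0 to 1767 probes and 0 to 4 members at 24 h against 6 h; in the first, the count was 25 without 24 h replicate 3, 6 without before-feeding replicate 2 2396 without 6 h replicate 2 and 0 without any of the other 6 arrays. Directions turned at 24 h against 6 h for TNF probe 2 (0.10 with quantile normalization, 0.10 with the deposited values, 0.05 with median scaling, 0.15 with the percentile over detected probes, 0.76 with spike-ins, 0.17 with normexp), TNF probe 3 (0.01, 0.01, 0.08 with the percentile over detected probes, 0.69 and 0.02 likewise) and NFKBIA probe 3 (0.20 with quantile, 0.21 with the deposited values and 0.49 with spike-ins). At 24 h against before feeding they turned for LTA (0.03) and CASP8 (0.62) with spike-ins and for RELA (-0.01) and TLR9 (-0.06) with normexp. Leaving out arrays gave -0.11 to 0.21 and -0.06 to 0.28 for the NFKB1 probes and -0.23 to 0.29 for RELA at 24 h against before feeding, and -0.22 to 0.05, -0.28 to 0.04 and -0.61 to 0.18 for TNF probes 2 and 3 and NFKBIA probe 3 at 24 h against 6 h. The causes were not tested. The block by replicate number is a hint only, since not every array correlated best with its own number. Slide as a block could not be fitted, because each time lay on its own slide. TNF probe 1 was too dim to test.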
